A study of Homo sapiens with 12 samples.

Results

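The genes described here are 10 feedback inhibitors of mitogen-activated protein kinase (MAPK) signalling, 7 dual-specificity phosphatases (DUSP1, DUSP2, DUSP4, DUSP5, DUSP6, DUSP8 and DUSP10) and 3 Sprouty-family genes (SPRY2, SPRY4 and SPRED1). They were chosen by gene symbol, as a family of inhibitors induced by ERK, and make up 10 of the 60583 genes in the tables. Nascent RNA was measured by TT-seq, which captures and sequences RNA that has taken up 4-thiouridine during a short labelling. U2OS is a human osteosarcoma line, and U2OS-AsiSI is the same line carrying AsiSI-ER, a restriction nuclease fused to an oestrogen-receptor domain. Each line was transfected with a control siRNA (siCtrl) or with an siRNA to INTS11 (siINTS11), the endonuclease subunit of the Integrator complex, and was sampled 48 hours later. Every U2OS-AsiSI library, control or not, came from cells given 4-hydroxytamoxifen (OHT) for 1 hour, and no U2OS library is labelled with OHT, so line, nuclease and OHT cannot be told apart between the lines. The 4 groups hold 3 libraries each. The labels do not say that replicates came from separate cultures, so p-values measure only the spread between these libraries.

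In the MAPK cascades a RAS protein or another upstream switch starts a relay of kinases that ends in ERK, JNK or p38, and each of these kinases is active only while a threonine and a tyrosine in its activation loop are phosphorylated. Dual-specificity phosphatases remove both phosphates, while Sprouty and SPRED proteins act earlier, between receptor tyrosine kinases and RAF. Many of these inhibitors are transcribed within minutes of ERK activation, so that the pathway limits itself, and their RNA is often read as a measure of ERK output.

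Promoter sequences are shown for 6 of the genes because their responses to siINTS11 went in different directions. SPRY2, SPRY4 and DUSP2 were higher after siINTS11 in both lines, DUSP6 was lower in both, DUSP8 was lower in U2OS, and DUSP1 showed no common direction. Each line gives the 250 bases before the RefSeq start on GRCh38.p14, read 5′ to 3′ on the gene's own strand, which is the minus strand in all 6. They span chr5:172771196-172771445 for DUSP1, chr2:96145441-96145690 for DUSP2, chr12:89352502-89352751 for DUSP6, chr11:1572272-1572521 for DUSP8, chr13:80341127-80341376 for SPRY2 and chr5:142324248-142324497 for SPRY4. SPRY2 has 3 starts in the RefSeq table, of which the first is shown, and the SPRY4 window lies inside the span over which that gene's reads were counted (142310427 to 142326455). Capitals mark the cyclic AMP response element (CRE, TGACGTCA) and its core (TGACG), on either strand, the sites known to be read by CREB and ATF factors.
SPRY2: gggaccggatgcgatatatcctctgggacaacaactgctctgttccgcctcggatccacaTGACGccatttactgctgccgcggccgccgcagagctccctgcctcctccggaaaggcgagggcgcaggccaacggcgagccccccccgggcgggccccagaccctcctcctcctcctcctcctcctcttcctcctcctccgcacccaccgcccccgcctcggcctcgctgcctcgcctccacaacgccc
SPRY4: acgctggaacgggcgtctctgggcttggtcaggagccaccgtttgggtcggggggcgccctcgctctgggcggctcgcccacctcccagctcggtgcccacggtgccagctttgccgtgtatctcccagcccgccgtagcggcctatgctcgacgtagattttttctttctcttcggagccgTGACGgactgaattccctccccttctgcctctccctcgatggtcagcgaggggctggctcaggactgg
DUSP2: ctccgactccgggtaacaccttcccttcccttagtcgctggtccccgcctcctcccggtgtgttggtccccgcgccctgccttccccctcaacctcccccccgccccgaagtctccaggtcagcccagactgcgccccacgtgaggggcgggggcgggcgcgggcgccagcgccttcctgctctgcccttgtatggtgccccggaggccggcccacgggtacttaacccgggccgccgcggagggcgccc
DUSP6: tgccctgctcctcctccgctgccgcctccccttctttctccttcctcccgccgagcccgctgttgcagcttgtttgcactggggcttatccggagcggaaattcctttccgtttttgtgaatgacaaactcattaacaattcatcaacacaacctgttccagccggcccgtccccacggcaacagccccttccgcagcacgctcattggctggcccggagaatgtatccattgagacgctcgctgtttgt
DUSP8: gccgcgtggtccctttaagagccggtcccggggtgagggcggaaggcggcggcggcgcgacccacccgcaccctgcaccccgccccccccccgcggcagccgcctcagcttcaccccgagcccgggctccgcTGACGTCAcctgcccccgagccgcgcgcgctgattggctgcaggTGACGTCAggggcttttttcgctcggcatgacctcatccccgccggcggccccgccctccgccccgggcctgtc
DUSP1: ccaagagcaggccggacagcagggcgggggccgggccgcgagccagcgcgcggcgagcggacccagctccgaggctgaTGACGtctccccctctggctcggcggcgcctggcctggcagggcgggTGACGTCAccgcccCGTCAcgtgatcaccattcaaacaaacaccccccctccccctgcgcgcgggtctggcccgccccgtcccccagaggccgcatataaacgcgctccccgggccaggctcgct

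DUSP1, an immediate-early gene whose nuclear product acts on ERK, JNK and p38, holds 1 full CRE between bases -125 and -118 from its start, and a TATA box (TATAAA) between -30 and -25. DUSP8, whose product prefers JNK and p38, holds 2 full CREs, at -118 to -111 and at -74 to -67. A full CRE stands in 1.65% of the 35116 RefSeq promoters of this length and the core in 21.2%, and each full CRE also counts as a core. SPRY2 holds 1 core at -190 to -186 and SPRY4 holds 1 at -68 to -64, while the windows of DUSP2 and DUSP6 hold neither. An ETS motif (CCGGAA, either strand, 14.5% of promoters) was found in SPRY2, at -142 to -137. None of the 8 members whose promoters were read matched an AP-1 site (TGANTCA, 6.57%) or a CArG box (1.16%). SP1 sites (GGGCGG, 42.6%) were found in 7 of these 8 genes, all but DUSP6. These letters describe the windows and show neither binding nor its absence.

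Library totals ran from 20704611 to 38065726 counts, and the 3 U2OS-AsiSI siINTS11 libraries, at 20704611 to 26579035, were the shallowest of the 4 groups. Replicates differed by more than sampling noise in every group (chi-square per degree of freedom 1.93 to 3.28). INTS11 itself had a mean of 9.69 ± 0.70 CPM (CPM are counts relative to the library total after TMM scaling, a correction for composition; SD, n = 3) in U2OS siCtrl and 7.37 ± 0.426 in U2OS siINTS11, which is -0.42 on the log2 scale (SE 0.09, edgeR quasi-likelihood adjusted p 6.08e-05). In U2OS-AsiSI it went from 10.2 ± 0.736 to 9.28 ± 0.242, or -0.13 (SE 0.08, edgeR adjusted p 0.172). That missed the threshold of 0.05, although the groups were apart, at 9.64 to 11 CPM under siCtrl and 9.01 to 9.49 under siINTS11. Nascent reads do not measure the depletion of mature INTS11 RNA or of the protein, which was not tested here. In both lines siINTS11 means the libraries labelled siINTS11. Of 9 mesenchymal and osteosarcoma markers 8 had at least 10 counts in every library, and COL1A2 had 2 to 13. Their summed level was 1550 to 1660 CPM in U2OS siCtrl, 1160 to 1240 in U2OS siINTS11, 1450 to 1490 in U2OS-AsiSI siCtrl and 1120 to 1170 in U2OS-AsiSI siINTS11. Of 5 epithelial markers 4 had at least 10 counts in every library (KRT19 had 0 to 2), and their sum went the other way, 84.8 to 90.7, 101 to 107, 93.3 to 103 and 124 to 136 CPM in the same order. The 3 endothelial markers summed to 6.1 to 7.44, 14.1 to 15.1, 5.9 to 6.55 and 13.2 to 13.7 CPM, and the 3 leukocyte markers to at most 0.423 CPM in any library, with CD3E at 0 to 1 counts. These sums differed between the siRNAs, and their part in the results on the members was not tested. Each sum is weighted towards its most-read genes. Over the 12 libraries RUNX2 ran from 3486 to 15782 counts and CDH2 from 7189 to 16250, while VIM ran from 3975 to 4586. The direction of each marker was not computed, so the sums do not show that the markers of a list moved together. In bulk libraries fewer cells of a kind and less RNA per cell cannot be told apart.

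The 10 genes spanned a wide range of nascent levels, compared here as CPM per kilobase of gene span. In U2OS siCtrl DUSP1 stood highest at 13.9 ± 1.5 CPM per kb (SD, n = 3), followed by DUSP2 at 3.77 ± 0.193. DUSP10 (2.02 ± 0.0721), whose product prefers JNK and p38, and SPRY2 (2 ± 0.0444) overlapped in their libraries and did not differ beyond their spread. SPRED1, which brings the RAS inhibitor NF1 to the membrane, and DUSP5, a nuclear phosphatase selective for ERK, came next at 1.54 ± 0.0738 and 1.4 ± 0.0766 CPM per kb, with nearest libraries at 1.49 and 1.48. The other 4 were low. DUSP6, the cytoplasmic phosphatase selective for ERK, had 0.185 ± 0.022 CPM per kb, and DUSP8 (0.0277 ± 0.00734) and SPRY4 (0.0262 ± 0.0129) overlapped below it. DUSP4, a nuclear phosphatase of ERK and JNK, was lowest at 0.00294 ± 0.00258. In the U2OS-AsiSI siINTS11 libraries the order had shifted: DUSP1 (15.9 ± 1.18) and DUSP2 (9.53 ± 0.811) still led, DUSP5 (3.83 ± 0.10) now stood above SPRED1 (1.95 ± 0.105) and DUSP10 (1.72 ± 0.0864), and SPRY4 (0.155 ± 0.0109) stood above DUSP6 (0.0831 ± 0.0275).

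**Figure D1:**
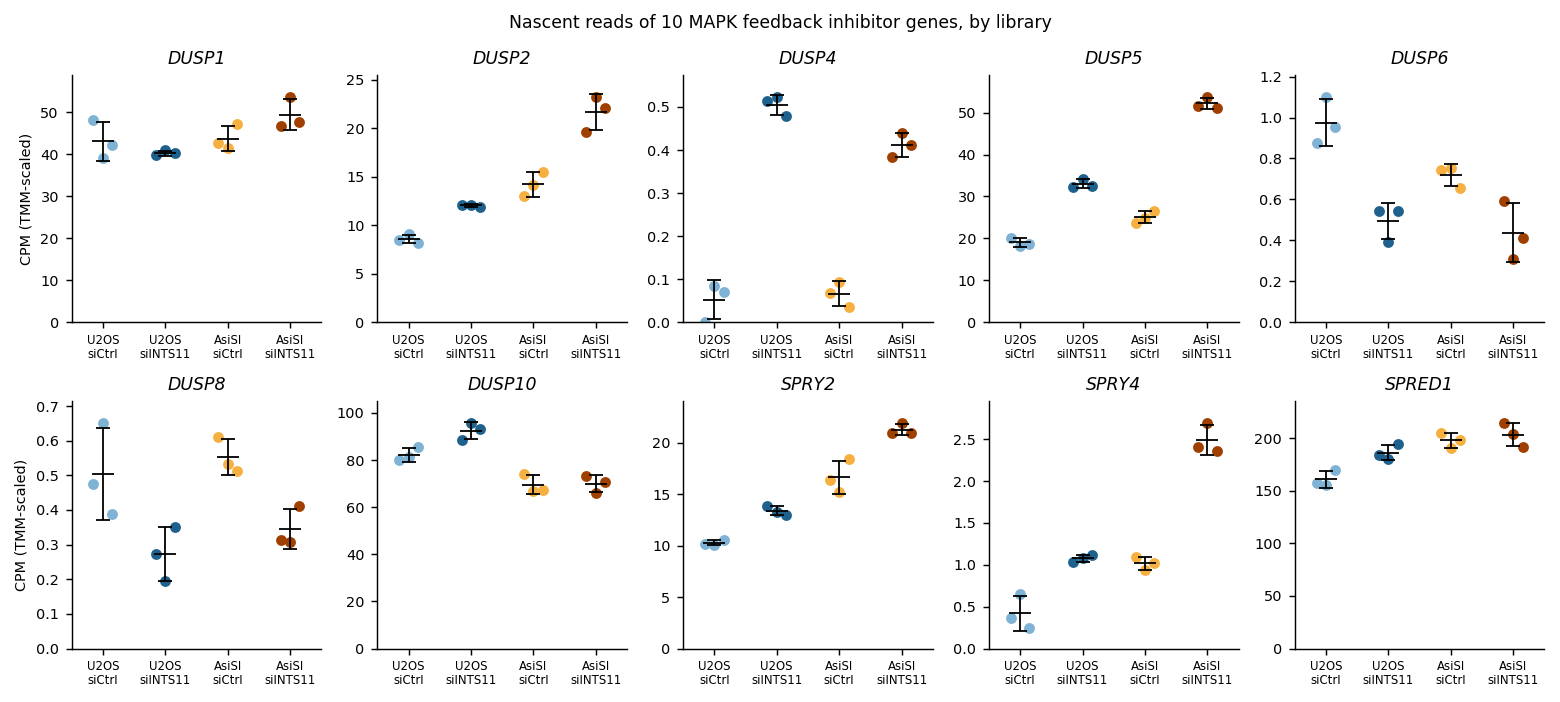
Nascent level of each of the 10 genes in TMM-scaled CPM (y axis, from 0, a separate scale for each gene) in the 12 libraries, by group (x axis). Points are libraries, the long bar is the mean and the whiskers 1 SD (n = 3). DUSP2, DUSP5, SPRY2 and SPRY4 are highest in U2OS-AsiSI siINTS11, and DUSP4 lies near 0 in both siCtrl groups. Group means run from 40.2 to 49.4 CPM in DUSP1 and from 161 to 204 CPM in SPRED1.

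The first comparison asked how siINTS11 changed the members in each line, where the lines share no library. In U2OS-AsiSI 6 of the 10 members were higher and 1 was lower at an edgeR adjusted p of 0.05, beside 68.0% of all 20441 genes tested that passed (35.4% higher, 32.6% lower). In U2OS 7 were higher and 2 lower, beside 66.9% of 20687 genes (34.5% higher, 32.4% lower). The median log2 fold change of the members was 0.27 in both lines, against medians of 0.03 and 0.02 over all genes tested. Passing was therefore common among all genes, and the share of members called, 7 of 10 and 9 of 10, is read against that. Called higher in both lines were 5 members (DUSP2, DUSP4, DUSP5, SPRY2 and SPRY4), called lower in both was DUSP6, and 0 were called in opposite directions. The share of all genes called alike in both lines was not computed, so these counts are descriptions.

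Of the phosphatases selective for ERK, DUSP5 rose in both lines. DUSP5 (ENSG00000138166, chromosome 10, 110497907 to 110511533, plus strand) had 20.2, 18.3 and 18.6 CPM in U2OS under siCtrl and 32.3, 34.2 and 32.5 under siINTS11. In U2OS-AsiSI it had 23.7, 24.9 and 26.5 CPM under siCtrl and 51.6, 53.7 and 51.2 under siINTS11. The 4 groups did not overlap, and both siINTS11 groups lay above both siCtrl groups. This is 0.77 on the log2 scale (SE 0.06, 95% interval 0.65 to 0.88, edgeR adjusted p 1.83e-15) in U2OS and 1.06 (SE 0.05, 0.95 to 1.17, edgeR adjusted p 5.36e-17) in U2OS-AsiSI, or 1.70-fold and 2.09-fold.

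DUSP6 (ENSG00000139318, chromosome 12, 89347235 to 89352501, minus strand), the other ERK-selective phosphatase, went the opposite way from a low level. The U2OS libraries held 24, 39 and 27 reads with siCtrl against 18, 12 and 17 with siINTS11, and the U2OS-AsiSI libraries 22, 24 and 18 against 17, 7 and 12. The scaled levels were 0.976 ± 0.116 and 0.493 ± 0.0871 CPM in U2OS and 0.719 ± 0.0528 and 0.438 ± 0.145 in U2OS-AsiSI (SD, n = 3), and the siRNA groups did not overlap in either line. DUSP6 fell by 1.02 on the log2 scale in U2OS (SE 0.26, edgeR adjusted p 0.000446). In U2OS-AsiSI it fell by 0.68 (SE 0.29, edgeR adjusted p 0.0354), and this call was lost in 7 of 12 alternatives, among them leaving out U2OS-AsiSI siCtrl replicate 1 or 2 or siINTS11 replicate 2 or 3 (edgeR adjusted p 0.0784, 0.0853, 0.146 and 0.111). The U2OS-AsiSI fall therefore rests on few reads.

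Among the nuclear phosphatases, DUSP2 (ENSG00000158050, chromosome 2, 96143169 to 96145440, minus strand) rose in both lines. Its level in U2OS was 8.49, 9.05 and 8.18 CPM under siCtrl and 12.1, 12.1 and 11.9 under siINTS11. In U2OS-AsiSI the values were 13.0, 14.1 and 15.5 against 19.6, 23.2 and 22.1 CPM. The siRNA groups were apart in each line, and the siCtrl libraries of U2OS-AsiSI already exceeded the siINTS11 libraries of U2OS. The log2 fold changes were 0.46 (SE 0.08, edgeR adjusted p 2.63e-06) in U2OS and 0.61 (SE 0.07, edgeR adjusted p 1.47e-08) in U2OS-AsiSI.

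DUSP4 (ENSG00000120875, chromosome 8, 29333064 to 29350684, minus strand) had the highest fold of the 10, from almost no reads. U2OS libraries held 0, 3 and 2 reads under siCtrl and 17, 16 and 15 under siINTS11, and U2OS-AsiSI libraries 2, 3 and 1 against 11, 10 and 12. No siCtrl library had more than 3 reads and no siINTS11 library had fewer than 10. The ratio of summed reads, corrected for library size, was 9.22 in U2OS (48 against 5 reads, exact 95% interval 3.69 to 29.7) and 6.06 in U2OS-AsiSI (33 against 6 reads, 2.51 to 17.7), where the intervals cover counting error only. The fitted log2 fold changes, 3.09 (SE 0.66, edgeR adjusted p 6.3e-07) and 2.53 (SE 0.59, edgeR adjusted p 3.06e-05), depend on the prior count at such depths. Even in the siINTS11 libraries DUSP4 stayed at 0.505 ± 0.0233 CPM in U2OS and 0.412 ± 0.028 in U2OS-AsiSI (SD, n = 3).

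DUSP1 (ENSG00000120129, chromosome 5, 172768096 to 172771195, minus strand) was the member whose reads changed least. It had 1321, 1378 and 1196 reads in U2OS siCtrl, 1313, 1249 and 1259 in U2OS siINTS11, 1259, 1320 and 1290 in U2OS-AsiSI siCtrl and 1341, 1217 and 1394 in U2OS-AsiSI siINTS11. All 12 values lay between 1196 and 1394, and the raw counts of the 4 groups overlapped. After scaling, DUSP1 was called higher in U2OS-AsiSI (43.7 ± 3.03 to 49.4 ± 3.66 CPM, log2 fold change 0.18, SE 0.06, edgeR adjusted p 0.00658), although the scaled groups overlapped as well. In U2OS it did not pass (43.1 ± 4.65 and 40.2 ± 0.594 CPM, log2 fold change -0.12, SE 0.06, edgeR adjusted p 0.0527). The U2OS-AsiSI call was lost without siCtrl replicate 2 (0.14, edgeR adjusted p 0.0576) and without siINTS11 replicate 2, the shallowest library (0.12, edgeR adjusted p 0.0728). In U2OS it was called lower in 3 of 13 alternatives: without siCtrl replicate 2, the deepest library (-0.18, edgeR adjusted p 0.00449), with median-of-ratios factors (-0.14, edgeR adjusted p 0.0281) and with no count filter (-0.13, edgeR adjusted p 0.037).

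DUSP1 is also the member densest in reads, and at that density counts hardly followed library depth. It had 0.386 to 0.45 reads per base of its span, against 0.102 to 0.283 in DUSP2, 0.0546 to 0.119 in SPRY2 and 0.0386 to 0.11 in DUSP5. Within groups, over the 12 libraries, log reads regressed on log depth gave a slope of 0.359 for DUSP1, where 1 would mean that reads rise in proportion to depth. The median slope was 0.402 over the 101 genes at 0.3 to 0.5 reads per base, 0.805 over the 1240 genes at 0.1 to 0.3 and 1.11 over the 3198 genes under 0.01, all of them averaging 100 reads or more over at least 1 kb. In DUSP2, DUSP5 and SPRY2 the slopes were 0.816, 0.709 and 0.751, and in DUSP10 and SPRED1 1.14 and 0.949. Slopes of single genes rest on the 3 libraries of each group and are descriptions. DUSP1 further lies wholly inside AC022217.4 on the opposite strand, which had 72 to 151 reads per library. The part of read density and of library depth in the calls of DUSP1 was not tested.

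**Figure D2:**
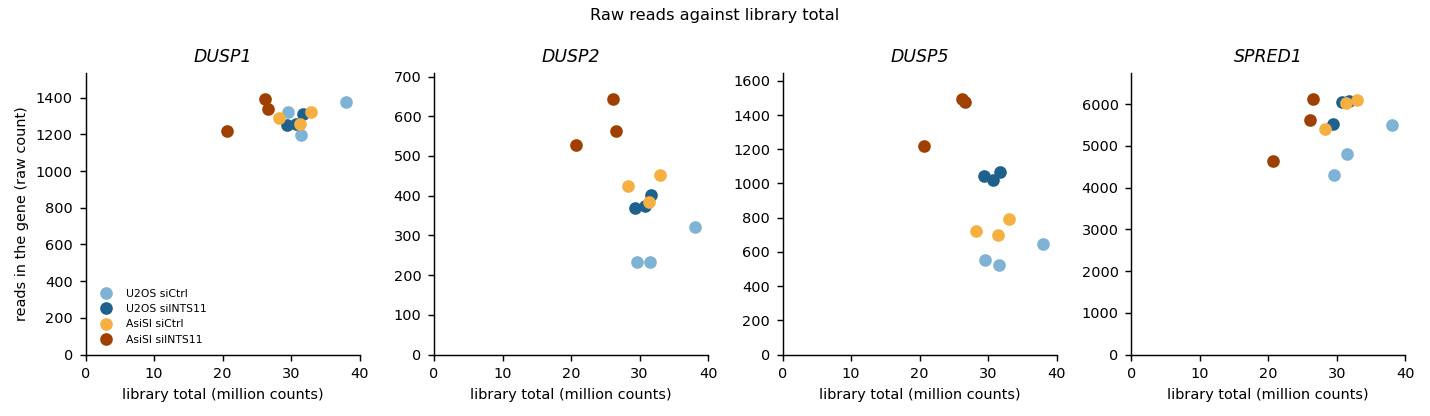
Raw reads in DUSP1, DUSP2, DUSP5 and SPRED1 (y axis, from 0) against the library total (x axis), 1 point per library, coloured by group. DUSP1 stays between 1196 and 1394 reads from the shallowest library to the deepest, while DUSP2 and DUSP5 have most reads in the shallow U2OS-AsiSI siINTS11 libraries.

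The phosphatases that prefer JNK and p38 responded less or from low counts. DUSP10 (ENSG00000143507, chromosome 1, 221701424 to 221742089, minus strand) rose in U2OS from 82.2 ± 2.93 to 92.4 ± 3.65 CPM (SD, n = 3; log2 fold change 0.14, SE 0.04, edgeR adjusted p 0.00301), and the groups were apart, at 80.0, 81.2 and 85.5 against 88.4, 95.6 and 93.3 CPM. In U2OS-AsiSI DUSP10 had 69.5 ± 4.05 and 70.0 ± 3.51 CPM, with overlapping groups, a difference of 0.02 on the log2 scale (95% interval -0.09 to 0.12, edgeR adjusted p 0.774). DUSP8 (ENSG00000184545, chromosome 11, 1554051 to 1572271, minus strand) had 13, 23 and 11 reads in U2OS under siCtrl and 9, 6 and 11 under siINTS11, and 18, 17 and 14 against 9, 7 and 12 in U2OS-AsiSI. Its scaled groups did not overlap in either line, with siINTS11 the lower. DUSP8 fell by 0.93 on the log2 scale in U2OS (SE 0.35, edgeR adjusted p 0.0144), a call lost without siCtrl replicate 2 (-0.66, edgeR adjusted p 0.155), without siINTS11 replicate 2 (adjusted p 0.0793), with library totals alone (0.0506) and in DESeq2 (0.0931). In U2OS-AsiSI DUSP8 stood at -0.66 on the log2 scale (SE 0.32, 95% interval -1.31 to -0.01, edgeR adjusted p 0.0696), short of the threshold.

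The Sprouty genes, inhibitors between receptor tyrosine kinases and RAF, were higher after siINTS11 in both lines. SPRY2 (ENSG00000136158, chromosome 13, 80335976 to 80341126, minus strand) had 10.2, 10.1 and 10.6 CPM in U2OS under siCtrl and 13.9, 13.3 and 13.0 under siINTS11, and 16.4, 15.2 and 18.4 against 21.0, 21.9 and 21.0 CPM in U2OS-AsiSI. Its siRNA groups were apart in each line, and the log2 fold changes were nearly equal, 0.35 (SE 0.07, edgeR adjusted p 6.83e-05) in U2OS and 0.36 (SE 0.07, edgeR adjusted p 2.99e-05) in U2OS-AsiSI. SPRY4 (ENSG00000187678, chromosome 5, 142310427 to 142326455, minus strand) rose more in fold from fewer reads. Its U2OS libraries held 10, 23 and 7 reads with siCtrl against 34, 33 and 35 with siINTS11, and 32, 30 and 28 against 69, 61 and 69 in U2OS-AsiSI. The lowest siINTS11 library exceeded the highest siCtrl library in each line, and the U2OS siINTS11 libraries reached the level of the U2OS-AsiSI siCtrl libraries. The log2 fold changes were 1.26 in U2OS (SE 0.28, edgeR adjusted p 7.14e-05; 1.01 to 1.79 over 12 alternatives) and 1.29 in U2OS-AsiSI (SE 0.18, edgeR adjusted p 1.05e-07). SPRY4 shares 1163 bases with SPRY4-AS1 on the opposite strand, a gene with 57 to 400 reads per library, and whether any were counted in SPRY4 was not tested.

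SPRED1 (ENSG00000166068, chromosome 15, 38252836 to 38357249, plus strand), the longest member at 104.41 kb, moved little. U2OS libraries stood at 157, 155 and 170 CPM under siCtrl and 184, 180 and 194 under siINTS11, which were apart, a rise of 0.18 on the log2 scale (SE 0.04, edgeR adjusted p 0.00016). In U2OS-AsiSI it had 205, 191 and 198 against 214, 204 and 192 CPM, which overlapped, with a log2 fold change of 0.05 (95% interval -0.05 to 0.14, edgeR adjusted p 0.396). Counted over all members, the libraries of the 2 siRNAs were apart and higher under siINTS11 for 5 members in U2OS-AsiSI and 7 in U2OS, beside 36.4% and 38.2% of all genes tested. They were apart and lower for 2 members in each line, beside 34.7% and 31.2%. The calls of DUSP2, DUSP4, DUSP5, SPRY2 and SPRY4 were kept in both lines under every alternative in which they were tested. DUSP4 and SPRY4 were not tested where a mean count of 50 was required.

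Scaling bears on the smaller changes. With library totals alone, the median of all genes tested moved from 0.03 to 0.22 on the log2 scale in U2OS-AsiSI and from 0.02 to 0.22 in U2OS, and the share of higher calls among all calls from 52.1% to 72.4% and from 51.6% to 74.3%. Under that scaling DUSP10 (0.21) and SPRED1 (0.24) were called higher in U2OS-AsiSI, values next to the shifted median, DUSP1 in U2OS stood at 0.08, and the members called were 8 higher and 0 lower in U2OS-AsiSI and 7 higher and 1 lower in U2OS. All fold changes here are relative to a typical gene, and a common shift of all genes was not analysed here.

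**Figure D3:**
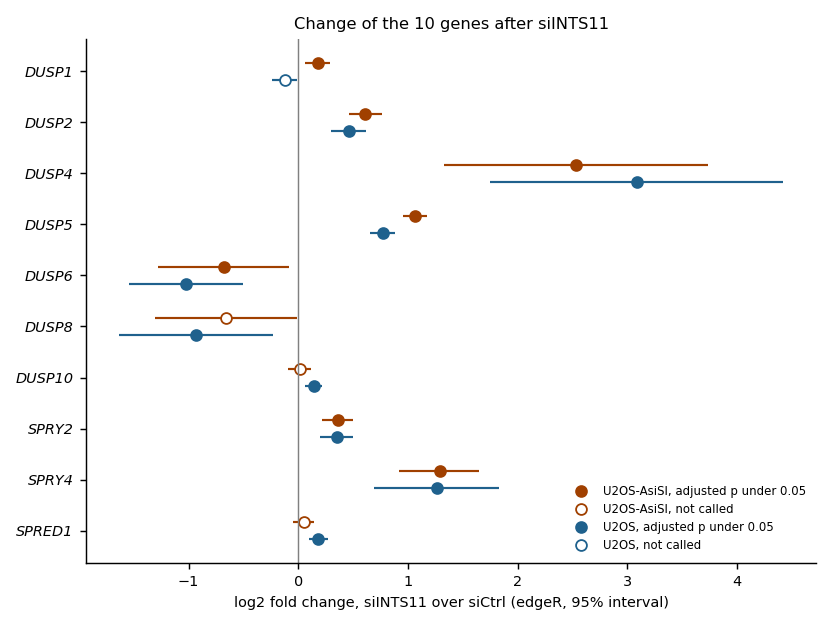
Log2 fold change of each member after siINTS11 (x axis, siINTS11 over siCtrl, edgeR estimate with 95% interval) in U2OS-AsiSI (orange) and U2OS (blue). Filled points passed an adjusted p of 0.05. DUSP2, DUSP4, DUSP5, SPRY2 and SPRY4 lie right of 0 in both lines and DUSP6 left of it, and the intervals of DUSP4, DUSP6, DUSP8 and SPRY4 are wide.

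The difference between the lines in the response to siINTS11 was tested as an interaction over all 12 libraries. DUSP5 rose more in U2OS-AsiSI than in U2OS, by 0.26 on the log2 scale (SE 0.08, 95% interval 0.11 to 0.42, edgeR adjusted p 0.046), and was the 1 member of 10 to pass, beside 3.87% of 21521 genes tested (0.762% higher, 3.10% lower). This call was lost in 10 of 19 alternatives, with values from 0.22 to 0.33 and adjusted p from 0.014 to 0.159. Among them were library totals alone (edgeR adjusted p 0.0529) and leaving out U2OS siCtrl replicate 1 (0.159), U2OS siINTS11 replicate 1 or 3 (0.105 and 0.103), U2OS-AsiSI siCtrl replicate 1 or 2 (0.137 and 0.0844) or U2OS-AsiSI siINTS11 replicate 2 or 3 (0.0941 and 0.0729). The median of the members was 0.06, against -0.05 over all genes tested.

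For the other 9 members no difference in response passed the threshold. The estimates ranged from -0.58 in DUSP4 (95% interval -2.38 to 1.22) to 0.30 in DUSP6 (-0.47 to 1.07), and these wide intervals leave large differences possible. The interval was narrower for SPRY2 (-0.02, -0.22 to 0.18), DUSP10 (-0.16, -0.29 to -0.02) and SPRED1 (-0.17, -0.30 to -0.04), whose edgeR adjusted p-values were 0.926, 0.193 and 0.129. DUSP1, at 0.27 (95% interval 0.09 to 0.45, edgeR adjusted p 0.0817), passed in 5 of 19 alternatives, among them without U2OS siCtrl replicate 2 (0.34, edgeR adjusted p 0.0201), without U2OS-AsiSI siCtrl replicate 3 (0.036) and without U2OS-AsiSI siINTS11 replicate 1 (0.0473). The ranks of the 10 log2 fold changes in the 2 lines had a Spearman rho of 0.96, given as a description over members that range from 0 to 6130 reads per library. Gene span and the log2 fold change had a rho of -0.20 in U2OS-AsiSI and -0.02 in U2OS over the same 10 genes.

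The second comparison set the U2OS-AsiSI cells, with the nuclease and OHT, against U2OS. It was made within siCtrl and within siINTS11, so these 2 comparisons share no library with each other, although each shares its libraries with the siRNA comparisons above. Under siCtrl 5 of 9 members tested were higher in U2OS-AsiSI and 1 lower, beside 34.9% of 19935 genes that passed (17.8% higher, 17.2% lower). Under siINTS11 6 of 9 were higher and 1 lower, beside 43.6% of 20802 genes (22.2% higher, 21.4% lower). The members' medians were 0.30 and 0.33 on the log2 scale, against 0.01 over all genes in each. DUSP4 under siCtrl and DUSP8 under siINTS11 had too few reads to be tested. DUSP2, DUSP5, SPRY2, SPRY4 and SPRED1 were called higher under both siRNAs, and DUSP10 lower under both. The share of all genes called alike under both siRNAs was not computed.

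SPRY4 and DUSP2 had the highest line differences. In SPRY4 the siCtrl libraries had 0.364, 0.65 and 0.247 CPM in U2OS and 1.09, 0.94 and 1.02 in U2OS-AsiSI, and the siINTS11 libraries 1.03, 1.08 and 1.12 against 2.41, 2.69 and 2.36. The lines were apart under each siRNA, with log2 differences of 1.21 (SE 0.29, edgeR adjusted p 0.000946) and 1.24 (SE 0.17, edgeR adjusted p 7.48e-08), a position at the 99.9th and 99.8th percentile of all genes tested. DUSP2 differed by 0.73 (SE 0.08, edgeR adjusted p 3.27e-08) and 0.88 (SE 0.07, edgeR adjusted p 1.2e-13), and SPRY2 by 0.69 (SE 0.08, edgeR adjusted p 3.04e-08) and 0.70 (SE 0.06, edgeR adjusted p 7.49e-12). DUSP5 was 0.40 (edgeR adjusted p 1.03e-05) and 0.70 (4.53e-15) higher in U2OS-AsiSI.

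SPRED1 stood 0.30 higher under siCtrl (edgeR adjusted p 1.78e-06), where the lines were apart, and 0.17 higher under siINTS11 (edgeR adjusted p 0.00201), where the libraries overlapped. DUSP10 went the other way in groups that were apart, at -0.24 under siCtrl (SE 0.05, edgeR adjusted p 0.000161) and -0.36 under siINTS11 (SE 0.05, edgeR adjusted p 1.52e-08). DUSP1 was at 0.03 under siCtrl (edgeR adjusted p 0.782) and was 0.33 higher under siINTS11 (SE 0.05, edgeR adjusted p 1.03e-06), the comparison that holds the shallowest libraries. DUSP6 did not pass under either siRNA, with log2 differences of -0.45 (95% interval -0.92 to 0.03, edgeR adjusted p 0.137) and -0.11 (-0.74 to 0.53, 0.808). DUSP8 under siCtrl stood at 0.10 (-0.50 to 0.70, edgeR adjusted p 0.819) and DUSP4 under siINTS11 at -0.26 (-0.89 to 0.36, edgeR adjusted p 0.531). Over the members, the lines were apart and higher in U2OS-AsiSI for 5 under each siRNA, beside 23.0% of all genes tested in each comparison, and apart and lower for 2 under each, beside 21.9% and 29.9%.

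**Figure D4:**
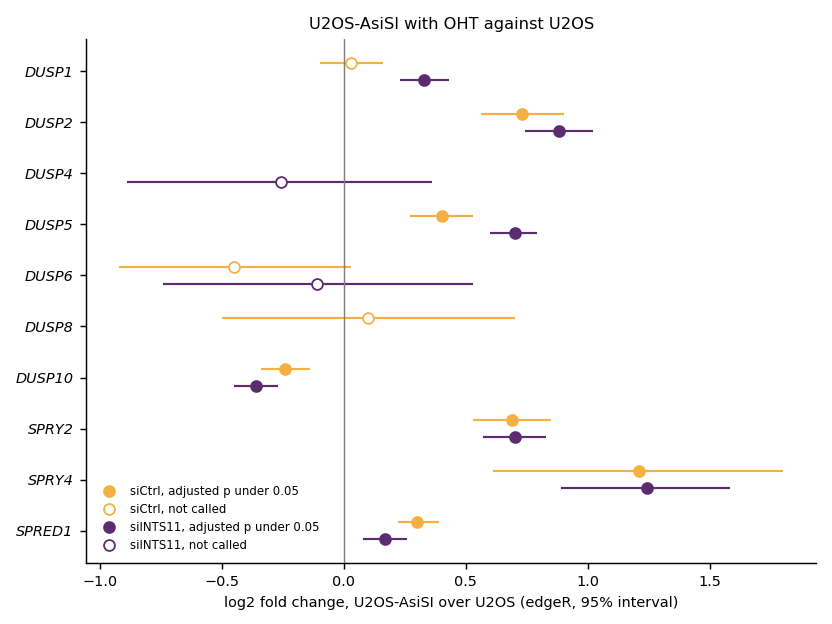
Log2 difference of each member between U2OS-AsiSI with OHT and U2OS (x axis, edgeR estimate with 95% interval) under siCtrl (yellow) and under siINTS11 (purple), with filled points for an adjusted p under 0.05. SPRY4, DUSP2, SPRY2 and DUSP5 lie right of 0 under both siRNAs and DUSP10 left of it. DUSP4 under siCtrl and DUSP8 under siINTS11 were not tested.

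The remaining genes of the pathway were read from the same fits, in lists of genes by role. Of the other MAPK phosphatases and Sprouty or SPRED genes, 5 of 7 were tested (SPRY1 and SPRY3 were too low), and siINTS11 raised 3 in U2OS-AsiSI and 2 in U2OS, where 1 fell, with medians of 0.41 and 0.33 on the log2 scale. DUSP7, a cytoplasmic ERK phosphatase, rose from 25.5 ± 1.66 to 41.5 ± 3.39 CPM in U2OS-AsiSI and from 16 ± 0.607 to 30.2 ± 1.98 in U2OS (log2 fold changes 0.71 and 0.88, edgeR adjusted p 1.23e-11 and 1.46e-16). SPRED3 rose by 0.53 and 0.66, and DUSP9 by 0.41 in U2OS-AsiSI with overlapping groups. DUSP16, which acts on JNK and p38, fell by 0.61 in U2OS (SE 0.25, edgeR adjusted p 0.0248). That fall rests on few reads, 21 to 35 per library under siCtrl and 16 to 23 under siINTS11. In U2OS-AsiSI DUSP16 stood at -0.24 (edgeR adjusted p 0.385), with overlapping groups. Of 7 atypical dual-specificity phosphatases tested, which lack the kinase-docking domain of the MAPK phosphatases, 3 rose and 1 fell in each line, with medians of -0.07 and 0.08, and DUSP28 rose by 0.71 and 0.92.

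Among 17 other genes known to be induced by ERK, 13 were higher and 2 lower after siINTS11 in U2OS-AsiSI (median 0.35), and 9 higher and 3 lower in U2OS (median 0.14). Without U2OS-AsiSI siINTS11 replicate 2, the shallowest library, 11 were higher and 2 lower in U2OS-AsiSI. ETV4, an ETS factor, rose from 69.1 ± 3.73 to 110 ± 2.05 CPM in U2OS-AsiSI and from 47.2 ± 1.97 to 84.7 ± 1.47 in U2OS (log2 fold changes 0.67 and 0.82). CCND1, the cyclin of the entry into the cell cycle, rose by 0.58 in U2OS-AsiSI and 0.48 in U2OS. EPHA4, a receptor kinase, fell by 0.68 and 0.82. Of this list 9 genes were higher in both lines, EPHA4 was lower in both and CCN1 was called in opposite directions. CCN1 stood at 0.13 in U2OS-AsiSI (edgeR adjusted p 0.0443) and at -0.18 in U2OS (edgeR adjusted p 0.0175), with overlapping groups in each line. How many of all genes were called alike in both lines was not computed. Between the lines, 11 of the 17 were higher in U2OS-AsiSI under siCtrl and 17 of 17 under siINTS11, beside 17.8% and 22.2% of all genes tested, with 0 lower in either and medians of 0.17 and 0.37. The second comparison holds the shallowest libraries, and without U2OS-AsiSI siINTS11 replicate 2 the count was 15 of 17. Of the 16 with a slope on depth, 3 had more than 0.3 reads per base over the 12 libraries, CCN1 (0.705, slope 0.182), MCL1 (0.399, slope 0.444) and MYC (0.321, slope 0.47). Low slopes also occurred at lower density, in FOSL1 (0.291, slope 0.357), EGR1 (0.237, slope 0.409) and FOS (0.0991, slope 0.434). The highest slope in the list was 1.2, in EPHA4. The part of depth in the differences of these 17 genes was not tested. EGR1, an immediate-early transcription factor, was higher in U2OS-AsiSI by 0.93 and 1.12, and FOS by 0.96 and 0.84, so they and the members DUSP2, SPRY2 and SPRY4 stood higher in the same libraries.

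The kinases upstream went down more often than up. In the RAS, RAF, MEK and ERK core 13 of 21 genes were lower and 2 higher in U2OS-AsiSI (median -0.22), and 16 lower and 1 higher in U2OS (median -0.21). SOS2, an exchange factor for RAS, fell by 0.72 and 0.68, and BRAF fell by 0.51 and 0.47, while SHC1, an adaptor of receptor kinases, rose by 0.38 and 0.19. Of 14 JNK and p38 kinases 7 fell in each line, and 2 rose in U2OS-AsiSI and 3 in U2OS (medians -0.06 and -0.11). MAP3K1 fell by 0.76 and 0.82, and MAP2K3, an activator of p38, rose by 0.60 and 0.56. Of 19 growth factors and receptors tested 9 rose and 7 fell in U2OS-AsiSI and 8 rose and 8 fell in U2OS (medians 0.20 and 0.05), with EGFR at -0.66 and -0.87 and PDGFRB at 1.05 and 0.79. Of 12 ternary complex and ETS factors with their kinases 4 rose and 4 fell in U2OS-AsiSI and 2 rose and 4 fell in U2OS (medians 0.02 and -0.09), and MKNK2, a kinase downstream of ERK, rose by 1.31 and 1.16. These counts are descriptions beside the background of 35.4% higher and 32.6% lower in U2OS-AsiSI and 34.5% and 32.4% in U2OS, and no list was tested against other genes.

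**Figure D5:**
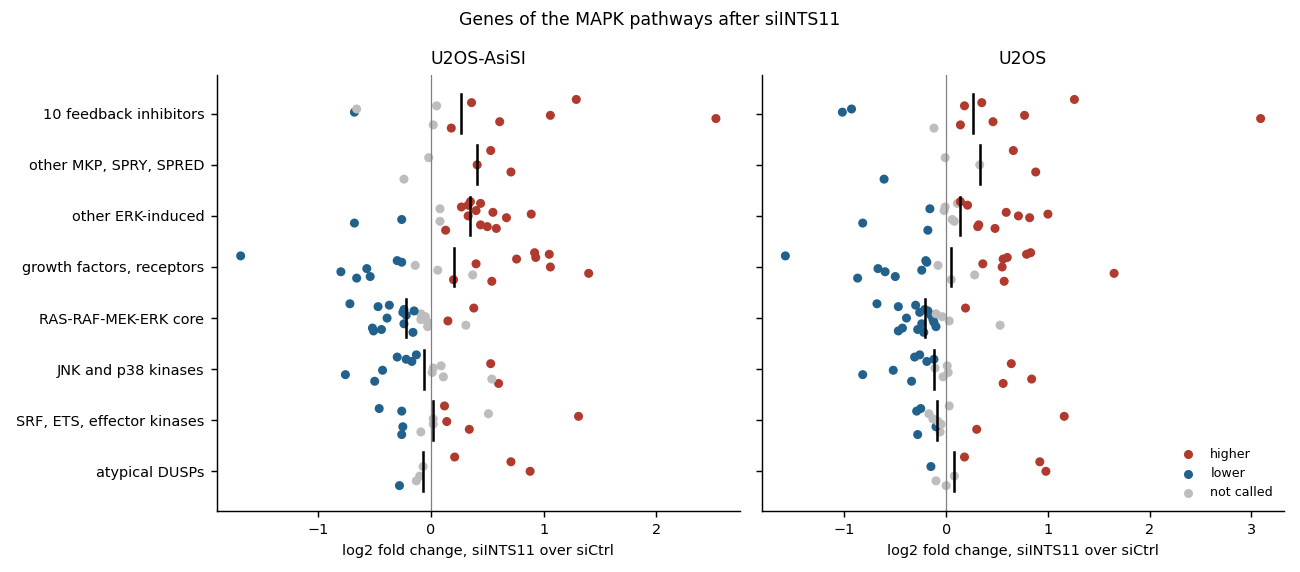
Log2 fold change after siINTS11 (x axis) of every tested gene in the 10 members and in 7 lists of the MAPK pathways (rows), in U2OS-AsiSI (left) and U2OS (right). Points are genes, red where called higher, blue where called lower and grey where not called, and black bars are list medians. The medians of the members are 0.27 in both panels and those of the RAS, RAF, MEK and ERK core -0.22 and -0.21.

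Across the 12 libraries, the genes whose log2 CPM most resembled that of a member were sought among 13557 genes averaging 100 reads or more. The likeness is Pearson's r over libraries of 4 groups, so it mostly reflects the group differences given above. For DUSP5 the nearest genes were RASGRF1 (r = 0.997), an exchange factor for RAS, and MDFI (0.995). For SPRY2 they were PHC2 (0.991) and NOL6 (0.987), and for DUSP2 FXYD5 (0.990) and TIMM50 (0.989). SPRY4 was nearest to BECN1 (0.982) and NRIP3 (0.977), and DUSP10 to LINC00158 (0.982) and MAP2K5 (0.972). DUSP1, with its flat counts, was nearest to TUBA1B (0.964) and RPS2 (0.963), and SPRED1 to BCCIP (0.973) and WDR3 (0.964). For the low members the values were 0.982 for DUSP4 with NFS1, 0.979 for DUSP6 with RNF180 and 0.945 for DUSP8 with CLDND1.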

How the data were processed

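The authors deposited raw read counts per gene, whole numbers over the whole gene span, introns included, in 12 columns matched to samples by name; the submitters' processing notes name Trimmomatic 0.36, STAR 2.7, featureCounts, deepTools and hg38, and duplicate handling and strand setting are not given in the sources used here. Per the labels' protocols, RNA carried a labelled yeast spike-in, which was not used here, and libraries were directional. Depth was 20704611 to 38065726 counts. The members, gene lists, tests and alternatives were chosen with earlier results of these data known.

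Genes were tested in 5 comparisons with edgeR 4.0.16 in R 4.3.3 (filterByExpr, TMM, robust glmQLFit, glmQLFTest, two-sided), adjusted by Benjamini-Hochberg over all genes tested at 0.05. SEs come from the fit's weights. CPM were scaled over all 12 libraries, and log2 CPM used a prior count of 2. Alternatives were library totals alone, size factors by median of ratios, no filter, a mean count of at least 50, a replicate block, DESeq2 1.42.0, 1 fit over 12 libraries and each library left out; leaving out the deepest and shallowest libraries together, and the shallowest for the ERK-induced list, were added after seeing the data. Named genes are INTS11, all members, up to 3 genes per list and comparison with the smallest adjusted p, and the 2 genes most like each member. SHC1, CCN1, MCL1, MYC, CCND1 in U2OS and FOS under siCtrl were named after their values were seen. Promoters are RefSeq's (GRCh38.p14) and were read for 8 of 10 members. DUSP5 had no entry, and chromosome 8, which holds DUSP4, was left out by rule. Replicate numbers showed no consistent pairing of the libraries.

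Counts were simulated with 100 genes changed 1.5-fold and 100 changed 2-fold. The test recovered 94% of 2-fold changes in U2OS-AsiSI (20147 genes, 3.35% of calls false) and 92% in U2OS (20414 genes, 7.18% false). For the difference between the lines it recovered 73% (20992 genes, 8.72% false). Of 1.5-fold changes it recovered 79%, 76% and 63% in the same order. More genes were called in the real data than were changed here, so these false shares do not carry over to it.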

Additional observations from a re-analysis of the deposited data

Results flagged for a closer look

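In 4 genes the response to siINTS11 differed between the lines by the interaction test over 12 libraries (edgeR quasi-likelihood, adjusted over all genes tested). These are 4 of the 105 members and listed genes tested, or 3.81%, a share near the 3.87% of all genes. DUSP5, the 1 member among them, rose by 0.26 more on the log2 scale in U2OS-AsiSI (adjusted p 0.046, lost in 10 of 19 alternatives). DUSP11, an atypical phosphatase that acts mainly on RNA, differed by -0.32 (adjusted p 0.00761). It changed by -0.28 in U2OS-AsiSI and stood at 0.00 in U2OS. FGFR1, a receptor upstream of ERK, differed by 0.26 (adjusted p 0.0154), with log2 fold changes of 0.06 in U2OS-AsiSI and -0.24 in U2OS. ETV5, an ETS factor induced by ERK, differed by -0.42 (adjusted p 0.000319), since it rose by 0.33 in U2OS-AsiSI and by 0.71 in U2OS. In simulated data with 100 genes changed 1.5-fold and 100 changed 2-fold, 8.72% of the calls of this test were false. That share does not carry over to these 4 genes, and the test recovered 63% of the 1.5-fold changes.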

How the results depend on the processing

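Of 658 values of members under an alternative, 625 kept their side of the threshold, 23 lost the call and 10 gained one. In 0 values did the sign change where either fit made a call. Values called in neither fit could change sign within the 625, as DUSP1 in U2OS did with library totals alone (-0.12 to 0.08). With a mean count of at least 50 only 6 members were tested, and those called numbered 4 in U2OS-AsiSI and 5 in U2OS, against 7 and 9 in the reported fit. Leaving out 1 library gave 5 to 7 and 8 to 9. For the difference between the lines, 1 member was called, against 2 with no filter or a mean of at least 50, 0 with library totals alone, 0 without the deepest and shallowest libraries and 0 to 2 with 1 library left out. The genes called for that difference numbered 832, against 447 with median-of-ratios factors, 423 in DESeq2, 464 without the deepest and shallowest libraries and 286 to 946 with 1 library left out. The cause of these shifts was not tested. With the replicate number as a block, 531 genes and 0 members were called for the difference (DUSP5 0.26, edgeR adjusted p 0.0764). Same-numbered libraries correlated at -0.37 to 0.45 around their group means, the highest being replicate 1 of U2OS-AsiSI siCtrl and of U2OS-AsiSI siINTS11. The numbers thus gave no consistent pairing, and whether any libraries were paired cannot be told from these values. The low counts of DUSP4, DUSP6, DUSP8 and SPRY4 limit what could be detected, and intervals from counts cover counting error only.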
